A study of Mus musculus with 6 samples.

Results

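CXC chemokines are small secreted proteins that carry a single residue between their first pair of cysteines. Levels of 8 of their genes, Cxcl1, Cxcl2, Cxcl5, Cxcl9, Cxcl10, Cxcl12, Cxcl14 and Cxcl16, were followed across mouse embryonic fibroblasts of 6 genotypes. They were taken by gene symbol from the 25793 genes counted, as a set chosen with earlier results of these data known. Whole-transcriptome RNA-seq was done on 1 library per genotype: wild type, Sptbn1+/-, Sptbn1-/-, SMAD3+/-, SMAD3-/- and Sptbn1+/-;SMAD3+/-. Sptbn1 encodes beta-II spectrin, a protein of the membrane skeleton that the labels also call β2SP, and Smad3 encodes a transcription factor that TGF-beta receptors activate. All cells were primary fibroblasts from E13.5 embryos of Sptbn1+/- and SMAD3+/- parents, replated after genotyping and grown in medium with 10% fetal bovine serum, with no treatment named. Not given in the labels are the deleted part of each gene, the number of embryos behind a library, and whether any libraries came from littermates.

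These genes fall into functional groups. Cxcl1, Cxcl2 and Cxcl5 draw neutrophils through the receptor CXCR2, and fibroblasts make them when interleukin-1 or tumour necrosis factor switches on NF-kappa-B. Cxcl9 and Cxcl10 draw activated T cells through CXCR3 and are classic products of interferon signalling. Cxcl12 is made constantly by stromal cells and guides cells that carry CXCR4, Cxcl14 is made constantly by many tissues, and Cxcl16 is held in the membrane, released by the protease ADAM10 and bound by CXCR6.

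Because each genotype was sequenced as a single library, no replicate error exists, and the ratios compare libraries, not genotypes. A level is given as counts-per-million (CPM) after scaling. A gene was called higher or lower when the exact 95% interval of its ratio, given in parentheses after a fold, lay wholly beyond 1.5-fold. These intervals hold counting error only. All 8 genes had at least 1 CPM in wild type, so all were among the 14810 genes compared.

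By the share of reads on genes the libraries fell into 2 kinds. Counts on genes ran from 6856680 to 31125055, and reads on genes made up 40.9 to 43.3% of uniquely placed reads in 4 libraries, against 80.1% and 81.2% in those labelled SMAD3-/- and Sptbn1+/-;SMAD3+/-. The ribosomal RNA gene Rn18s differed in the same way, at 64661 to 87249 CPM in the 4 libraries against 349 and 1529 CPM, and whatever separates the 2 kinds cannot be told apart from those genotypes. The last 2 libraries also differed from each other, at 4153 and 0.605 CPM of Rn7sk and 4473 and 335 CPM of Malat1. Of the cell-cycle genes, Ccnb1 stood there at 75.3 and 1.05 CPM, against 3.63 CPM in wild type. Mki67 stood at 335 and 148 CPM, against 718 CPM in wild type. Sptbn1, listed as Spnb2, stood at 75.5% of its wild-type level in the Sptbn1+/- library, 54.3% in the Sptbn1-/- library, 110% in that labelled SMAD3+/-, 72.0% in that labelled SMAD3-/-, which carries no Sptbn1 mutation by its label, and 48.9% in that labelled Sptbn1+/-;SMAD3+/-. Smad3 ran against the labels: it was at 149% of wild type in the library labelled SMAD3+/-, 199% in that labelled SMAD3-/- and 381% in that labelled Sptbn1+/-;SMAD3+/-, so directions drawn from these 3 libraries rest on the labels alone. Sptbn1 levels do not settle the Sptbn1 labels either. The library labelled SMAD3-/- lay below the Sptbn1+/- library, and that labelled Sptbn1+/-;SMAD3+/- below the Sptbn1-/- library. Xist, which marks an inactive X chromosome, stood at 2747 CPM in the library labelled SMAD3+/- and at no more than 16.3 CPM in the others. The 10 fibroblast markers were read in every library, with summed levels of 18480 CPM (labelled SMAD3-/-) to 56879 CPM (labelled Sptbn1+/-;SMAD3+/-). The 16 macrophage and leukocyte markers were read in every library too, at 1673 to 2628 CPM in sum in 5 libraries and 68.9 CPM in that labelled SMAD3-/-.

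The start regions of these genes were searched for motifs of transcription factors known to act on inflammatory genes, and windows of some matches are shown. The part of these motifs in the levels below was not tested. RefSeq promoters (build GRCm38.p6) were matched for 6 of the 8 genes, and the 250 bases before each start were searched on both strands. Cxcl5 and Cxcl16 had no matched promoter and were not searched, so nothing is said here of their motifs. The kappa-B motif, which NF-kappa-B binds, was found before Cxcl1, Cxcl2 and Cxcl10 and in 1.17% of all 27025 promoters. In Cxcl1 and Cxcl2, and in their neighbour Cxcl3, it lies in the same 11 letters, which match on both strands with an offset of 1 base. These begin 71 bases before the start in Cxcl1 (chr5:90891149-90891208, plus strand), 97 in Cxcl2 (chr5:90903777-90903836, plus strand) and 73 in Cxcl3 (chr5:90786003-90786062, plus strand). The motif is in capitals:
Cxcl1: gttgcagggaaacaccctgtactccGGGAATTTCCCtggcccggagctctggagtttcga
Cxcl2: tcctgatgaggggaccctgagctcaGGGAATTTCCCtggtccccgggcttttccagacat
Cxcl3: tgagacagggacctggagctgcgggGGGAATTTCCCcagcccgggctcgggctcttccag

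Across these 60 bases Cxcl1 and Cxcl2 were identical at 50% of positions, Cxcl1 and Cxcl3 at 46.7% and Cxcl2 and Cxcl3 at 40%. The motif was placed at the same point of each window, so its shared letters are identical in advance and count among these positions. Cxcl10 held both a kappa-B match, 159 bases before its start (chr5:92349024-92349063, minus strand), and an interferon-stimulated response element, 213 bases before it (chr5:92349078-92349117, minus strand). The response element was found in 3.04% of all promoters, and both motifs together in 12 promoters, or 0.0444%. Cxcl10 also had an AP-1 match, TGANTCA, 74 bases before its start, a motif found in 6.87% of promoters. Each motif of the pair is in capitals:
Cxcl10 response element: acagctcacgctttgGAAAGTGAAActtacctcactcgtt
Cxcl10 kappa-B: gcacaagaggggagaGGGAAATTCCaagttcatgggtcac

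Cxcl12 differed from these. It held none of the inducible motifs and 5 GC boxes, GGGCGG, the motif of the Sp1 family, which was found in 32.9% of all promoters. The last 3 of them, read here on the opposite strand as CCGCCC, begin 33, 16 and 11 bases before the start (chr6:117168475-117168534, plus strand), the last pair sharing a base, and are in capitals:
Cxcl12: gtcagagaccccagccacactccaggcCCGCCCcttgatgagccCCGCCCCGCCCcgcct

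Among the rest, Cxcl14 had a response element match 172 bases before its start, Cxcl2 also had a GC box, and Cxcl9 had none of these 4 motifs in its window. The SMAD palindrome GTCTAGAC was in 0.174% of promoters and before none of the 6 genes. These matches describe letters and do not show binding. The 3' untranslated regions of the GENCODE M21 transcripts also differed: ATTTA, the core of the AU-rich elements through which inflammatory messages are degraded, occurred 11.8 times per kb in Cxcl1 and 7.35 times in Cxcl2, against a median of 1.37 over 18655 genes. Only 0.236% of those genes had as many per kb as Cxcl1, and 1.68% as many as Cxcl2. The density was 4.49 in Cxcl5, 3.00 in Cxcl10, 1.4 in Cxcl16, 1.22 in Cxcl9 and 0.771 in Cxcl12, and Cxcl14 had no ATTTA. The longer form TTATTTATT, found in 7.35% of 21824 genes, occurred 2 times in Cxcl1, 4 times in Cxcl2 and in no other of the 8.

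The neutrophil-attracting genes were highest in the library labelled Sptbn1+/-;SMAD3+/- and lowest in the Sptbn1+/- library. Cxcl1, also called KC or Gro-alpha, stood at 13.3 CPM in wild type, 5.15 in Sptbn1+/-, 9.86 in Sptbn1-/-, 17.9 in the library labelled SMAD3+/-, 13.3 in that labelled SMAD3-/- and 576 in that labelled Sptbn1+/-;SMAD3+/-. The first 5 libraries spanned 3.48-fold, and the last lay 32.1-fold (27.8 to 37.4) above the next. Wild type and the library labelled SMAD3-/- could not be told apart by counting error, at a ratio of 1.00 (0.820 to 1.23). Against wild type, Cxcl1 was 2.57-fold (1.77 to 3.83) lower in the Sptbn1+/- library and 43.4-fold (37.0 to 51.3) higher in the library labelled Sptbn1+/-;SMAD3+/-.

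Cxcl2, or MIP-2, was the least abundant of the 3 per kb of transcript in every library. It was read 38 times in wild type (3.36 CPM), 1 time in Sptbn1+/- (0.147 CPM), 19 times in Sptbn1-/- (2.84 CPM), 20 times in the library labelled SMAD3+/- (1.94 CPM), 4 times in that labelled SMAD3-/- (0.178 CPM) and 1934 times in that labelled Sptbn1+/-;SMAD3+/- (61.6 CPM). Wild type, Sptbn1-/- and the library labelled SMAD3+/- formed a middle step whose neighbours could not be told apart by counting error. The Sptbn1+/- library and that labelled SMAD3-/- formed a low step and could not be told apart either. The ratio to wild type was 22.8-fold lower in the Sptbn1+/- library, with a wide interval of 3.86 to 925 set by the single read, 18.9-fold (6.81 to 73.0) lower in that labelled SMAD3-/- and 18.3-fold (13.3 to 26.0) higher in that labelled Sptbn1+/-;SMAD3+/-.

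Cxcl5, called LIX in the mouse, was the most abundant member in the library where it was highest. Its level was 41.2 CPM in wild type, 17.5 in Sptbn1+/-, 21.2 in Sptbn1-/-, 85.8 in the library labelled SMAD3+/-, 63.7 in that labelled SMAD3-/- and 4351 in that labelled Sptbn1+/-;SMAD3+/-. Both Sptbn1 single-mutant libraries lay below wild type, by 2.35-fold (1.92 to 2.90) and 1.94-fold (1.61 to 2.36), and were not separated from each other, at 1.21-fold (0.942 to 1.56). The library labelled SMAD3+/- was called 2.08-fold (1.86 to 2.33) higher, whereas the 1.55-fold (1.39 to 1.72) of that labelled SMAD3-/- was not called. In the library labelled Sptbn1+/-;SMAD3+/- Cxcl5 was 106-fold (96.4 to 116) above wild type, ranking 2 of 14810 genes by the lower bound. Its 136603 reads were 0.439% (exact binomial 95% interval 0.437 to 0.441) of all reads on genes in that library, and it was the 9th most counted gene there.

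**Figure D1:**
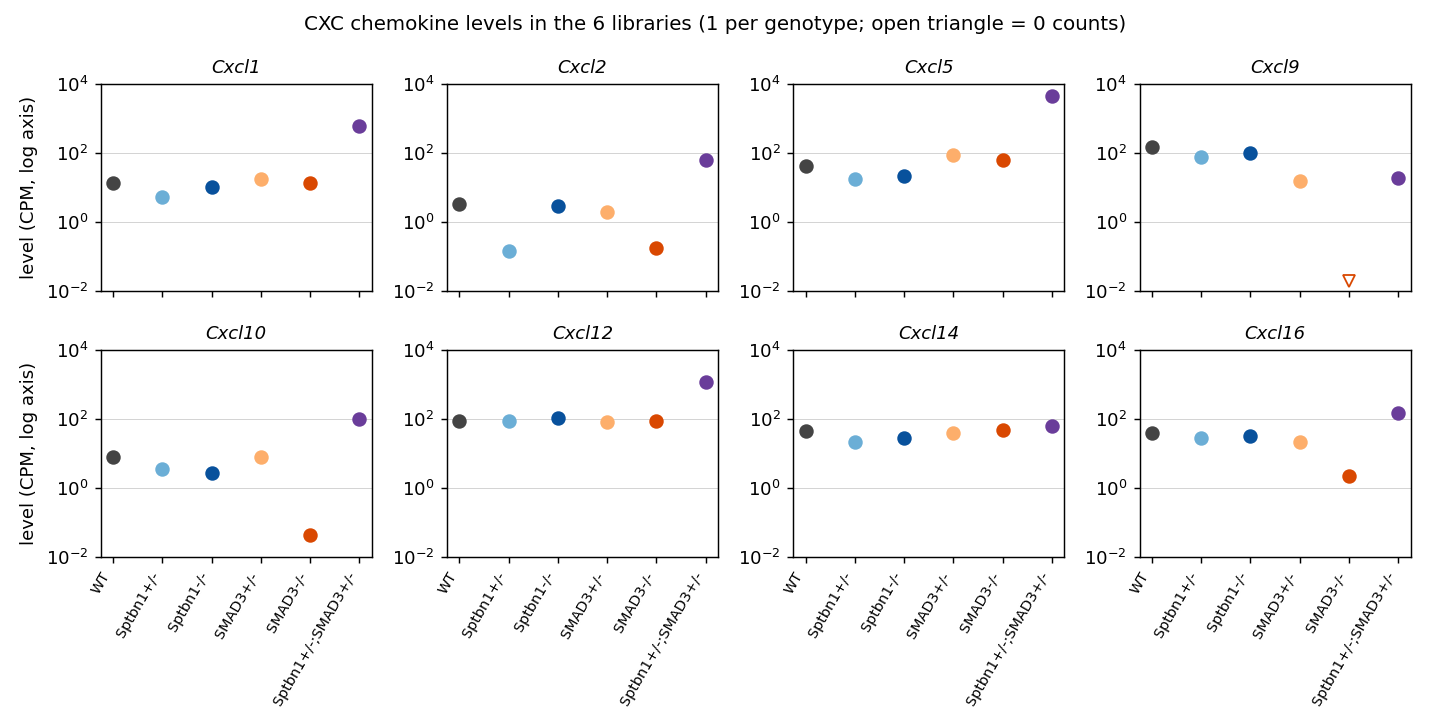
Level of each of the 8 genes (CPM, log axis) in each of the 6 libraries, 1 point per library, with an open triangle for 0 counts. Counting intervals are not drawn. Cxcl5 stands at 17.5 to 85.8 CPM in 5 libraries and 4351 CPM in that labelled Sptbn1+/-;SMAD3+/-, Cxcl12 stays between 80.9 and 108 CPM before reaching 1191, and Cxcl9 shows the other direction, from 144 CPM in wild type to 0.

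The interferon-inducible pair did not move together. Cxcl9, or MIG, was highest in wild type and had 0 reads in 1 library. It stood at 144 CPM in wild type, 73.6 in Sptbn1+/-, 99.4 in Sptbn1-/-, 15.2 in the library labelled SMAD3+/-, 0 in that labelled SMAD3-/- and 18.2 in that labelled Sptbn1+/-;SMAD3+/-. The 3 libraries labelled with a SMAD3 allele were all below the other 3, and those labelled SMAD3+/- and Sptbn1+/-;SMAD3+/- could not be told apart, at 1.19-fold (0.998 to 1.43). Against wild type the ratios were 1.96-fold (1.77 to 2.17) lower in Sptbn1+/-, 1.45-fold (1.33 to 1.59) lower and not called in Sptbn1-/-, 9.50-fold (8.06 to 11.3) lower in the library labelled SMAD3+/- and 7.96-fold (7.23 to 8.77) lower in that labelled Sptbn1+/-;SMAD3+/-. No read among the 21329087 of the library labelled SMAD3-/- fell on Cxcl9, which allows a share of up to 1.4e-05%, against 0.0143% (0.0136 to 0.0150) in wild type. With 3 counts as the floor for that library, Cxcl9 was at least 1084-fold lower there, and by the exact 95% interval used for the other ratios the bound was 881-fold.

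Cxcl10, or IP-10, shared the low end with Cxcl9 but not the high end. It was at 7.61 CPM in wild type, 3.53 in Sptbn1+/-, 2.69 in Sptbn1-/-, 7.56 in the library labelled SMAD3+/-, 0.0444 in that labelled SMAD3-/- and 101 in that labelled Sptbn1+/-;SMAD3+/-. Wild type and the library labelled SMAD3+/- were level, at a ratio of 1.01 (0.732 to 1.39), although the latter held 9.50-fold less Cxcl9. Cxcl10 was 2.83-fold (1.69 to 5.0) lower than wild type in Sptbn1-/-, and the 2.15-fold (1.36 to 3.54) of Sptbn1+/- was not called. A single read remained in the library labelled SMAD3-/-, a ratio of 171-fold with an interval of 29.9 to 6843. The library labelled Sptbn1+/-;SMAD3+/- was 13.3-fold (10.8 to 16.7) higher than wild type. Cxcl10 lies within Art3, which was at 0.265 CPM or less in every library.

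Cxcl12, also known as SDF-1, was the steadiest of the 8 apart from 1 library. Its level was 84.1 CPM in wild type, 88.8 in Sptbn1+/-, 108 in Sptbn1-/-, 80.9 in the library labelled SMAD3+/-, 87.6 in that labelled SMAD3-/- and 1191 in that labelled Sptbn1+/-;SMAD3+/-. The first 5 spanned 1.34-fold, and 4 of them formed a run in which no neighbours were separated by counting error. None of those 4 mutant libraries was called against wild type, with 1.28-fold (1.16 to 1.42) in Sptbn1-/- the farthest. The remaining library was 14.2-fold (13.3 to 15.1) higher than wild type.

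Cxcl14, or BRAK, was the only member not called against wild type in the library labelled Sptbn1+/-;SMAD3+/-. It was read at 42.8 CPM in wild type, 21.8 in Sptbn1+/-, 27.6 in Sptbn1-/-, 39.9 in the library labelled SMAD3+/-, 47.6 in that labelled SMAD3-/- and 60.9 in that labelled Sptbn1+/-;SMAD3+/-. The 6 libraries spanned 2.79-fold. The 2 low libraries were the Sptbn1 single mutants, at 1.96-fold (1.63 to 2.38) below wild type in Sptbn1+/- and 1.55-fold (1.30 to 1.84), not called, in Sptbn1-/-. The 1.42-fold (1.29 to 1.57) of the library labelled Sptbn1+/-;SMAD3+/- was not called.

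Cxcl16, which doubles as a scavenger receptor, was at 38.9 CPM in wild type, 27.1 in Sptbn1+/-, 31.4 in Sptbn1-/-, 21 in the library labelled SMAD3+/-, 2.27 in that labelled SMAD3-/- and 145 in that labelled Sptbn1+/-;SMAD3+/-. It was lower than wild type by 1.85-fold (1.57 to 2.19) and 17.2-fold (12.8 to 23.4) in the libraries labelled SMAD3+/- and SMAD3-/-, and higher by 3.73-fold (3.38 to 4.12) in that labelled Sptbn1+/-;SMAD3+/-. Zmynd15 overlaps Cxcl16 and had the same extremes, at 0 CPM in the library labelled SMAD3-/- and 13.6 CPM in that labelled Sptbn1+/-;SMAD3+/-, against 2.03 CPM in wild type. The sources used here do not give the strand setting of the counting, so reads of the overlap cannot be assigned between them.

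The make-up of the group therefore changed between libraries. The 8 genes together took 0.0226 to 0.0372% of the reads on genes in 5 libraries and 0.656% in that labelled Sptbn1+/-;SMAD3+/-. The most counted member was Cxcl9 in wild type (38.4% of the members' reads), Cxcl12 in Sptbn1+/- (37.4%), Sptbn1-/- (35.7%) and the library labelled SMAD3-/- (40.8%), and Cxcl5 in those labelled SMAD3+/- (31.7%) and Sptbn1+/-;SMAD3+/- (66.9%). Per kb of the longest coding GENCODE M21 transcript, the order in wild type was Cxcl9 (50 CPM per kb), Cxcl5 (26.2), Cxcl14 (23.4), Cxcl12 (15.0), Cxcl16 (14.4), Cxcl1 (13.9), Cxcl10 (5.62) and Cxcl2 (1.81). In the library labelled Sptbn1+/-;SMAD3+/- the same scale placed Cxcl5 first, at 2762 CPM per kb, then Cxcl1 at 605 and Cxcl12 at 212, with Cxcl9 last at 6.28.

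Set against wild type as a group, the members gave a different count in each library. In the Sptbn1+/- library 5 of 8 were lower and 0 higher, where 1.20% of all genes were lower and 0.635% higher (1.83% in either direction). The median log2 ratio of the 8 was -1.03, beside -0.01 over all genes compared. Cxcl16 (1.44-fold lower, 1.21 to 1.72) and Cxcl12 (1.06-fold higher, 0.951 to 1.17) were nearest to wild type. In the Sptbn1-/- library 2 of 8 were lower and 0 higher, where 0.412% of genes were lower and 0.648% higher (1.06% in all), and the median was -0.48. The Sptbn1+/- and Sptbn1-/- comparisons share the wild-type library.

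The library labelled SMAD3+/- had 1 member higher and 2 lower of 8, where 1.64% of genes were higher and 4.46% lower (6.10% in all), and a median of -0.08. In that labelled SMAD3-/- 4 of 8 were lower and 0 higher, where 24.2% of all genes were higher and 25.2% lower. The share called in either direction thus lies near the background of 49.4%, while all 4 calls were in the lower direction. By the upper bound of the interval, from the lowest, Cxcl9, Cxcl10, Cxcl16 and Cxcl2 ranked 1, 210, 479 and 873 of the 14810 genes. The members' log2 ratios split: Cxcl1, Cxcl12 and Cxcl14 lay within 1.11-fold of wild type, Cxcl5 was 1.55-fold higher, and the 4 called were 17.2-fold lower or more. The median was -2.05, beside 0.05 over all genes. In that labelled Sptbn1+/-;SMAD3+/- 6 of 8 were higher and 1 lower, where 21.6% of genes were higher and 19.1% lower (40.7% in all). Its median was 3.78, beside 0.06. By the lower bound of the interval Cxcl5, Cxcl1, Cxcl2, Cxcl12, Cxcl10 and Cxcl16 ranked 2, 15, 52, 53, 68 and 554 of the 14810 genes.

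**Figure D2:**
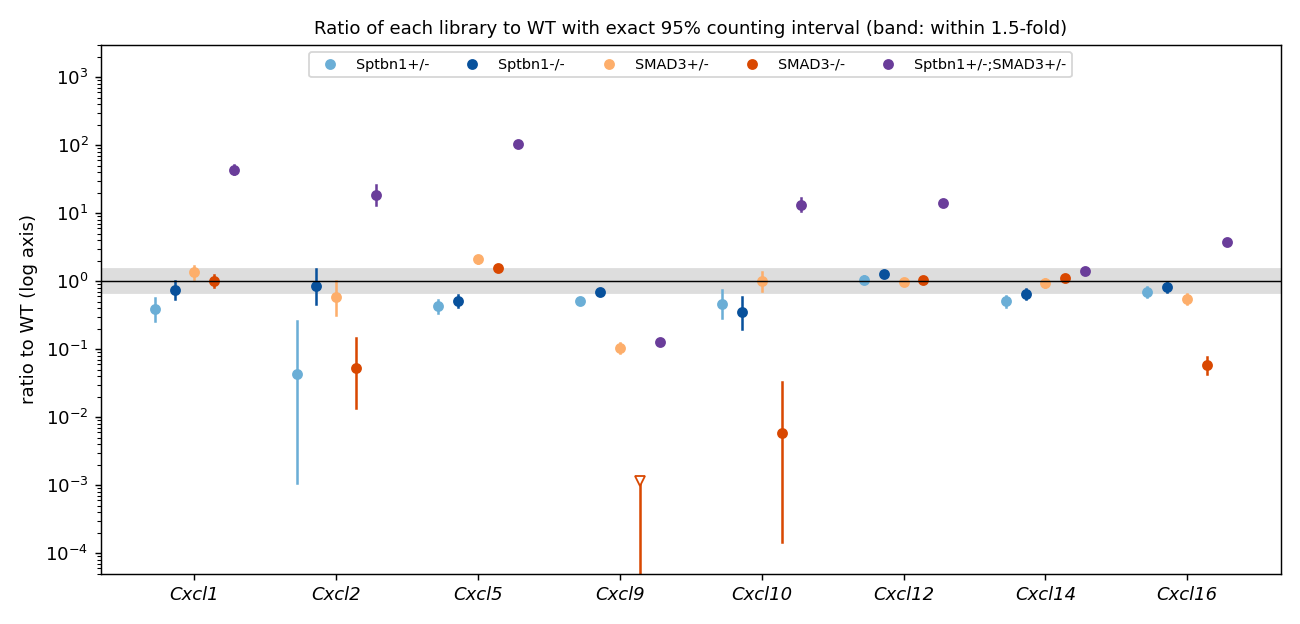
Ratio of each mutant library to wild type (log axis) for the 8 genes, with its exact 95% counting interval as a bar. The grey band spans 1.5-fold either way, a bar wholly outside it is called, and the open triangle is the upper bound for Cxcl9 at 0 counts. Points of the library labelled Sptbn1+/-;SMAD3+/- lie above the band for 6 genes and below it for Cxcl9 (7.96-fold lower). For Cxcl14 (1.42-fold) the point lies inside the band and its bar crosses the upper edge.

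**Figure D3:**
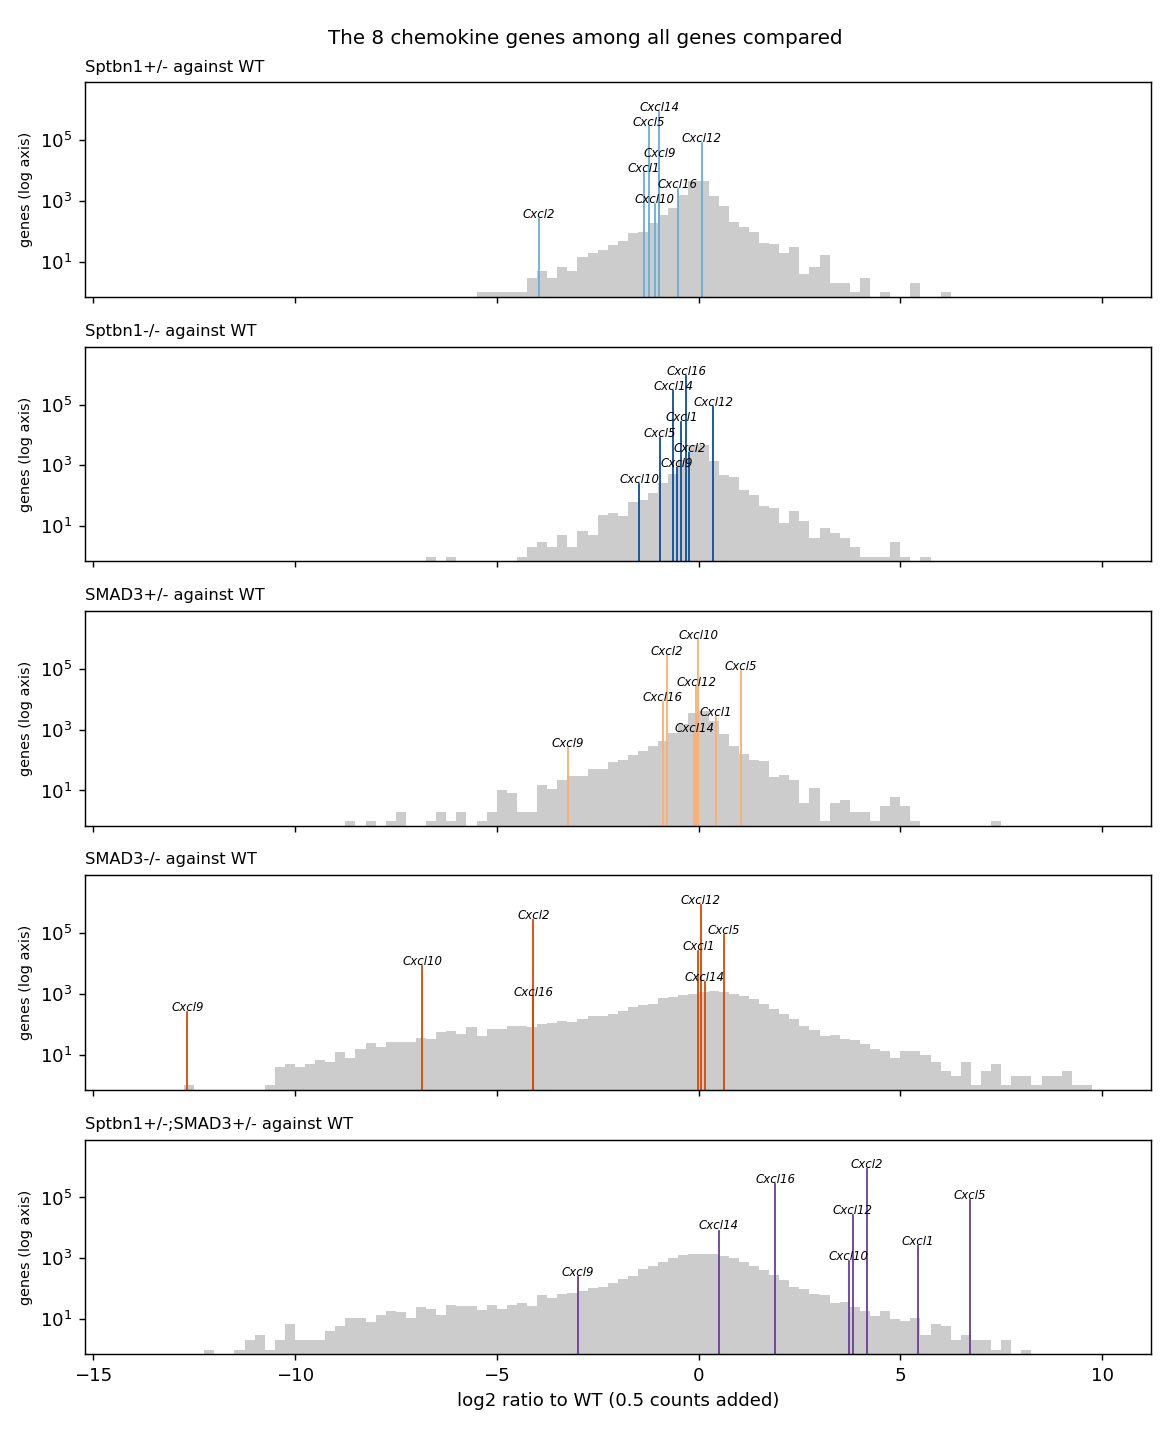
Histograms of the log2 ratio to wild type (0.5 counts added) over the 14810 genes compared, 1 panel per mutant library, with a log axis for the number of genes and a line for each of the 8 genes. The grey distribution is wide in the lower 2 panels, where 49.4% and 40.7% of genes were called, and narrow in the upper 3, where 1.06 to 6.10% were.

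Libraries carrying 1 and 2 mutant alleles were also compared directly. Between Sptbn1-/- and Sptbn1+/-, 1 of 8 members was called higher and 0 lower, where 0.925% of genes were higher and 0.378% lower (1.30% in all). That member was Cxcl2, at 19 against 1 read (19.3-fold, 3.07 to 801). Cxcl1 was 1.91-fold (1.25 to 2.97) higher, not called, and the other 6 lay within 1.35-fold. Between the libraries labelled SMAD3-/- and SMAD3+/-, 4 of 8 were lower and 0 higher, where 22.3% of genes were lower and 22.6% higher (44.9% in all). These were Cxcl9 (at least 114-fold by the floor of 3 counts, or 91.8-fold by the bound of the exact interval), Cxcl10 (170-fold, 29.7 to 6806, from 1 read), Cxcl2 (10.9-fold, 3.65 to 43.9) and Cxcl16 (9.28-fold, 6.82 to 12.9).

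The library labelled Sptbn1+/-;SMAD3+/- was next set against each single heterozygote. Against the Sptbn1+/- library 7 of 8 were higher and 1 lower, where 21.1% of genes were higher and 18.3% lower (39.4% in all). Cxcl5 was 248-fold (207 to 300) higher, the first of all genes by the lower bound, Cxcl1 112-fold (80.4 to 161), Cxcl10 28.7-fold (19.2 to 44.8) and Cxcl12 13.4-fold (12.4 to 14.6). Cxcl2 was 418-fold higher with an interval of 75.0 to 16531, since it rests on 1 read. Cxcl9 was the lower member, by 4.06-fold (3.59 to 4.58). Against the library labelled SMAD3+/-, 6 of 8 were higher and 0 lower, where 22.5% of genes were higher and 19.0% lower (41.5% in all). The ratios were 50.7-fold (47.5 to 54.3) for Cxcl5, 32.1-fold for Cxcl1, 31.8-fold (20.5 to 52.1) for Cxcl2, 14.7-fold (13.7 to 15.8) for Cxcl12, 13.4-fold (10.7 to 17.0) for Cxcl10 and 6.91-fold (6.03 to 7.95) for Cxcl16. Cxcl14, at 1.52-fold (1.37 to 1.70), and Cxcl9 were not called.

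The wild type, the 2 single heterozygotes and the double heterozygote form a square in which the last can be compared with the product of the single ratios. The departure was the log2 step from the library labelled SMAD3+/- to that labelled Sptbn1+/-;SMAD3+/- less the log2 step from wild type to Sptbn1+/-, with 0.5 counts added to each. All 8 members departed upwards by more than 1.5-fold, where 18.5% of all genes departed upwards and 16.5% downwards (35.0% in all). Cxcl2 departed by 8.90 (6.47 to 11.34) on the log2 scale, Cxcl5 by 6.89 (6.59 to 7.20) and Cxcl1 by 6.35 (5.78 to 6.92). Cxcl10 followed with 4.82 (4.10 to 5.54), Cxcl12 with 3.80 (3.62 to 3.98) and Cxcl16 with 3.31 (2.99 to 3.62). For Cxcl14, at 1.58 (1.27 to 1.88), and Cxcl9, at 1.22 (0.93 to 1.52), the step from wild type to Sptbn1+/- was -0.97 in each case, and the step from the library labelled SMAD3+/- was 0.61 for Cxcl14 and 0.25 for Cxcl9, neither of them called. The departure has no replicate error. Of its 4 libraries only the double heterozygote was of the kind with a high share of reads on genes (81.2%), so genotype and kind of library cannot be told apart in it. Xist differed among them too, at 2747 CPM in the library labelled SMAD3+/- and no more than 16.3 CPM in the rest.

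A fit over all 6 libraries, with the mutant allele numbers of Sptbn1 and Smad3 as terms, was the only test the design allowed. By edgeR's quasi-likelihood test with Benjamini-Hochberg adjustment over 14085 genes, 0 genes passed for Sptbn1 and 0 for Smad3, and 0 of the 8 members were among them (background 0% for both). At an unadjusted p under 0.05 there were 21 genes for Sptbn1 and 3404 for Smad3, and DESeq2 called 3 and 2068 genes after adjustment, with Cxcl9 the only member among them. The lowest adjusted p among the members by edgeR was that of Cxcl9, which fell by 3.85 on the log2 scale per Smad3 allele, with adjusted p = 0.16. Over the alternative fits this adjusted p ran from 0.0109 with DESeq2 to 0.575 with edgeR without the library labelled SMAD3-/-. For Sptbn1 alleles the adjusted p by edgeR was 0.9998 for each of the 8 members. The fit takes an equal effect of each allele on the log scale, and what edgeR calls its biological coefficient of variation was 0.467. Without replicates this value holds misfit of that model as well as spread between cultures. It was 0.112 without the libraries labelled SMAD3-/- and Sptbn1+/-;SMAD3+/-. That 0 genes passed therefore does not show an absence of effect.

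Of the 8 genes, 5 lie on chromosome 5 in a pair of clusters (RefSeq gene order), and Cxcl12, Cxcl14 and Cxcl16 are alone on chromosomes 6, 13 and 11. The first cluster runs Rassf6, Cxcl5, Ppbp, Pf4, Cxcl3, Cxcl15, Cxcl1, Cxcl2, Mthfd2l. Besides Cxcl1, Cxcl2 and Cxcl5, Cxcl3 and Cxcl15 were higher in the library labelled Sptbn1+/-;SMAD3+/-, with Cxcl3 going from 2.57 CPM in wild type to 30.4 CPM (11.8-fold higher, 8.18 to 17.8). Cxcl15, the lung chemokine lungkine, went from 1 read to 284 (0.0885 to 9.04 CPM), a ratio of 102-fold with an interval of 18.2 to 4052. Cxcl15 reached 1 CPM in no other library, so it was compared only because it is high there. The platelet chemokine genes between them did not follow: Pf4 was at 14.1 CPM in wild type and 1.66 CPM there (8.49-fold lower, 6.17 to 11.9), and Ppbp, at 1.15 and 1.62 CPM, was not called. Ppbp was instead higher in the libraries labelled SMAD3+/- (4.21-fold, 2.25 to 8.45) and SMAD3-/- (7.69-fold, 4.39 to 14.7). Its neighbour Cxcl5 was called higher in the first of these and not in the second, and neither Cxcl1 nor Cxcl2 was called higher in them. The flanking genes Rassf6 and Mthfd2l were not called against wild type in any of the 5 mutant libraries. Farther along, the growth factor gene Ereg was at 10.1 CPM in wild type and was called lower in Sptbn1+/- (3.53 CPM) and higher in the libraries labelled SMAD3+/- (43.8 CPM), SMAD3-/- (79.1 CPM) and Sptbn1+/-;SMAD3+/- (84.3 CPM). Areg was called higher in that labelled SMAD3-/- alone, at 5.82 CPM against 0.265 CPM in wild type.

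The second cluster runs Naaa, Sdad1, Cxcl9, Art3, Cxcl10, Cxcl11, Nup54. Cxcl11, the remaining CXCR3 ligand, stood at 24.5 CPM in wild type, 6.48 in Sptbn1+/-, 13.6 in Sptbn1-/-, 1.65 in the library labelled SMAD3+/-, 0 in that labelled SMAD3-/- and 3.60 in that labelled Sptbn1+/-;SMAD3+/-. It was thus called lower in the library in which Cxcl9 was lower and its direct neighbour Cxcl10 was higher, by 6.81-fold (5.45 to 8.55). Sdad1, next to Cxcl9, was not called against wild type in any library and ran from 61.5 to 88.9 CPM. Naaa, on its other side, was at 7.52 CPM in wild type and was called higher in the libraries labelled SMAD3-/- (19.8 CPM) and Sptbn1+/-;SMAD3+/- (26.8 CPM). Nup54 was called higher in that labelled SMAD3-/- (37.9 against 12.0 CPM), and Scarb2, beyond it, lower in that labelled SMAD3+/- (55.6 against 95.2 CPM).

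**Figure D4:**
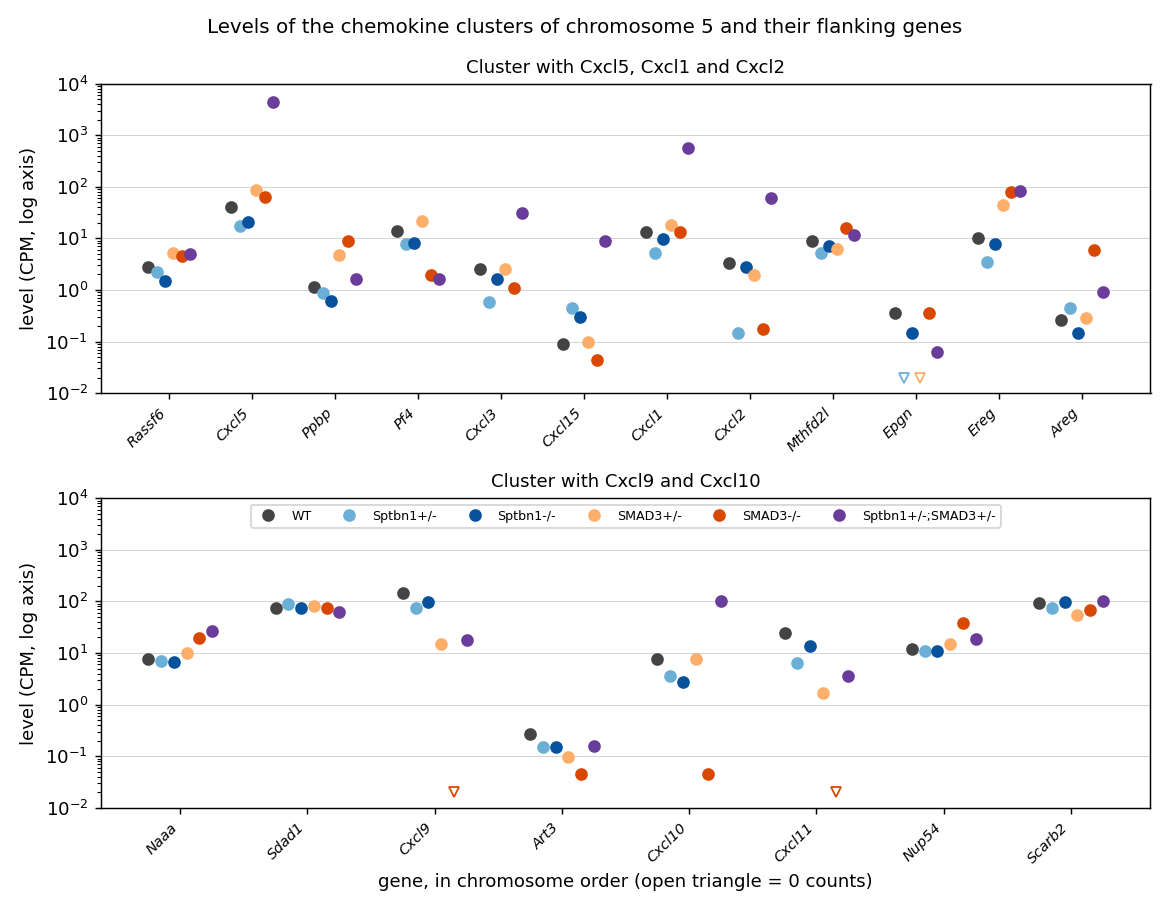
Levels (CPM, log axis) of the genes of both chromosome 5 clusters in gene order, 1 point per library, with an open triangle for 0 counts. In the upper panel the points of the library labelled Sptbn1+/-;SMAD3+/- stand clear of the rest for Cxcl5, Cxcl3, Cxcl15, Cxcl1 and Cxcl2 but not for Ppbp or Pf4; in the lower panel this is so for Cxcl10 but not for Cxcl9 or Cxcl11.

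Over the whole family, 14 of 15 genes were abundant enough to compare, Cxcl17 being left out. Against wild type 0 were higher and 7 lower in Sptbn1+/-, 0 and 2 in Sptbn1-/-, 2 and 3 in the library labelled SMAD3+/-, 1 and 6 in that labelled SMAD3-/- and 9 and 3 in that labelled Sptbn1+/-;SMAD3+/-. Of all genes, 1.20% were lower in Sptbn1+/- and 0.412% in Sptbn1-/-, and 1.64% were higher and 4.46% lower in the library labelled SMAD3+/-. In that labelled SMAD3-/- 24.2% were higher and 25.2% lower, so its 7 of 14 called in either direction lie near the background, though 6 of them were lower. In that labelled Sptbn1+/-;SMAD3+/- 21.6% were higher and 19.1% lower. The median log2 ratio in the last was 2.99, beside 0.06 over all genes. The 9 higher genes were the 6 members with Cxcl3, Cxcl15 and Cxcl13, the B-cell chemokine, which went from 4 to 67 reads (6.03-fold, 2.25 to 22.8). Cxcl13 and Cxcl15 reached 1 CPM in that library alone. They were thus compared only because they are high there, and the count of 9 and the median include them.

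Receptors for these ligands were little read. Cxcr1 had 0 reads in every library, Cxcr2 no more than 0.177 CPM and Cxcr3 no more than 0.149 CPM, so the receptors of the neutrophil and T-cell chemokines were at or near 0. Of 8 receptor genes 4 could be compared, and none was called in the Sptbn1 single-mutant libraries or that labelled SMAD3+/-. The decoy receptor Ackr3, listed as Cxcr7, which removes CXCL12, was at 10.4 CPM in wild type and was higher in the library labelled SMAD3-/- (24.7 CPM, 2.39-fold, 1.95 to 2.94) and in that labelled Sptbn1+/-;SMAD3+/- (44.8 CPM, 4.33-fold, 3.58 to 5.27). Cxcr4, the signalling receptor of CXCL12, was 4.34-fold (2.23 to 8.70) lower in the latter, from 2.21 to 0.510 CPM. Cxcr6, the receptor of CXCL16, was 5.56-fold (2.58 to 12.7) lower there, from 1.95 to 0.350 CPM. In that labelled SMAD3-/- the other call was Ackr1, listed as Darc, lower with 0 reads against 6. The 1 higher and 1 lower of 4 in that library lie near the background of 24.2% of all genes higher and 25.2% lower. The 1 higher and 2 lower of 4 in that labelled Sptbn1+/-;SMAD3+/- stand beside 21.6% higher and 19.1% lower.

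Genes of the known inducers were called in 4 of the 5 mutant libraries, and their part in the members' levels was not tested. Of 16 cytokine and receptor genes compared, 4 were lower in Sptbn1+/-, none was called in Sptbn1-/-, 2 were lower in the library labelled SMAD3+/-, 9 were lower and 1 higher in that labelled SMAD3-/-, and 11 were higher and none lower in that labelled Sptbn1+/-;SMAD3+/-. Over all genes, 1.20% were lower in Sptbn1+/- and 4.46% in the library labelled SMAD3+/-. In that labelled SMAD3-/- 25.2% were lower and 24.2% higher, and in that labelled Sptbn1+/-;SMAD3+/- 21.6% were higher and 19.1% lower. Interleukin-1 genes did not follow Cxcl1 and Cxcl5 in every library. In the Sptbn1+/- library Il1b stood at 0.589 CPM against 7.61 CPM in wild type (12.9-fold lower, 4.87 to 48.5), and Il1a at 0.589 against 6.10 CPM (10.4-fold lower, 3.87 to 39.1). In Sptbn1-/- they were at 6.57 and 6.28 CPM and not called. Both were also lower in the library labelled SMAD3+/- (Il1b 5.23-fold, 3.00 to 9.76; Il1a 3.15-fold, 1.89 to 5.47), where Cxcl5 was higher. They had 0 and 1 reads in that labelled SMAD3-/-, where Cxcl1 was level with wild type. In that labelled Sptbn1+/-;SMAD3+/- Il1b was 1.91-fold (1.52 to 2.44) higher and Il1a, at 1.15-fold lower (0.859 to 1.54), was not called. Il6, itself an NF-kappa-B target, was at 67.2 CPM in the library labelled Sptbn1+/-;SMAD3+/- against 5.75 CPM in wild type (11.7-fold higher, 9.13 to 15.2), and Tnf at 44.3 against 5.40 CPM (8.20-fold higher, 6.35 to 10.8). Ifng and Il17a had 0 reads in all libraries and Ifnb1 no more than 1.

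NF-kappa-B genes were called mainly in the libraries labelled SMAD3-/- and Sptbn1+/-;SMAD3+/-. Of 15, 1 was lower in Sptbn1+/- and 1 in that labelled SMAD3+/-, in both cases Tnfaip3, the feedback inhibitor A20, and none was called in Sptbn1-/-. Over all genes, 1.20% were lower in Sptbn1+/- and 4.46% in that labelled SMAD3+/-, where 1 of 15 lies near this share. In the library labelled SMAD3-/- 5 were higher and 3 lower, with a median log2 ratio of 0.21, and this share lies near the 49.4% of all genes called there. In that labelled Sptbn1+/-;SMAD3+/- 10 were higher and 2 lower, with a median of 1.68, where 21.6% of all genes were higher and 19.1% lower. Nfkbia, the inhibitor that NF-kappa-B itself induces, was 42.3-fold (34.6 to 52.1) higher there, at 366 against 8.67 CPM. Zc3h12a, a ribonuclease that degrades inflammatory messages, was 26.6-fold (20.5 to 35.1) higher, and the subunit gene Relb 15.3-fold (12.1 to 19.6). Zfp36, whose product tristetraprolin degrades messages through AU-rich elements, was lower, by 1.64-fold (1.51 to 1.78), as was Rel by 2.03-fold (1.66 to 2.5).

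Proteases that trim or shed CXC chemokines gave, of 9 compared, 3 lower in Sptbn1+/-, 2 lower in Sptbn1-/-, 4 lower and 1 higher in the library labelled SMAD3+/-, 6 lower in that labelled SMAD3-/- and 5 higher in that labelled Sptbn1+/-;SMAD3+/-. Over all genes the lower shares were 1.20% in Sptbn1+/-, 0.412% in Sptbn1-/-, 4.46% in the library labelled SMAD3+/- and 25.2% in that labelled SMAD3-/-. The higher shares were 1.64% in that labelled SMAD3+/- and 21.6% in that labelled Sptbn1+/-;SMAD3+/-. Mmp3 was 9.20-fold (8.94 to 9.47) higher in the last, and Adam10 and Adam17, the sheddases of CXCL16, were higher by 1.68-fold (1.59 to 1.77) and 2.13-fold (2.02 to 2.25), in the same library as Cxcl16.

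Markers of other cells were read beside the members. In RNA from a whole culture, fewer cells of a type and less RNA per cell cannot be told apart. All 16 macrophage and leukocyte markers were lower in the library labelled SMAD3-/- (median log2 ratio -5.49), where Cxcl2, Cxcl9, Cxcl10 and Cxcl16 were lower, and none was at 0. Of these 16, 6 were lower in Sptbn1+/-, 2 in Sptbn1-/- and 2 in the library labelled SMAD3+/-, with none higher, and in that labelled Sptbn1+/-;SMAD3+/- 2 were higher and 8 lower. Their summed level in that library, 1956 CPM, lay within the 1673 to 2628 CPM of wild type, both Sptbn1 single mutants and the library labelled SMAD3+/-. Lyz2, 1 of the 8 lower, alone gave 1025 CPM of this sum, against 1631 of 2628 CPM in wild type and 1073 of 1673 CPM in Sptbn1+/-. The sum therefore follows mainly that gene. Fibroblast markers were called for 0 of 10 in both Sptbn1 single mutants, 2 lower in the library labelled SMAD3+/-, 1 higher and 8 lower in that labelled SMAD3-/-, and 5 higher and 1 lower in that labelled Sptbn1+/-;SMAD3+/-. Endothelial markers summed to 7.77 to 15.9 CPM and epithelial markers to 6.02 to 69.2 CPM, the highest in the library labelled SMAD3-/-. Of 5 endothelial markers compared, 3 were lower in that labelled SMAD3-/-, and 1 was higher and 1 lower in that labelled Sptbn1+/-;SMAD3+/-. Of 5 epithelial ones, 1 was higher in that labelled SMAD3+/-, 3 were higher in that labelled SMAD3-/- and 3 were lower in that labelled Sptbn1+/-;SMAD3+/-, with none of either list called in the Sptbn1 single mutants. These marker counts stand beside 49.4% of all genes called in the library labelled SMAD3-/- and 40.7% in that labelled Sptbn1+/-;SMAD3+/-. The shares called were 1.83% in Sptbn1+/-, 1.06% in Sptbn1-/- and 6.10% in the library labelled SMAD3+/-. The part of any of these cells in the chemokine levels was not tested.

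Genes with the most similar profiles were found for the 5 members that had at least 3 reads in each library, as the smallest root-mean-square difference of centred log2 levels over the 6 libraries among 10084 genes. The glucose transporter gene Slc2a6 (0.461), Cxcl5 (0.574) and Zc3h12a (0.638) were nearest to Cxcl1. Cxcl5 was nearest to Cxcl1, then to the granulocyte growth factor gene Csf3 (0.669) and Slc2a6 (0.762). For Cxcl12 the 3 nearest were Fam65c (0.239), Tnip1 (0.272), which encodes a partner of A20, and the death receptor gene Fas (0.297). Cxcl16 lay nearest to C1qtnf7 (0.128), Pik3ap1 (0.218) and the metallothionein gene Mt2 (0.267), and Cxcl14 to Msl3l2 (0.135), Galns (0.157) and Itfg2 (0.166). Slc2a6, for example, stood at 2.09 to 4.97 CPM in 5 libraries and at 125 CPM in that labelled Sptbn1+/-;SMAD3+/-. Csf3 was at 0 to 0.678 CPM in the same 5 and at 37.8 CPM in the last, and Fam65c at 1.79 to 2.48 and 28.7 CPM. Slc2a6, Csf3 and Fam65c thus averaged at least 5 CPM only because they are high there. The genes searched had no minimum of reads per library, so the distance of Csf3 rests on levels at or near 0. With 6 points dominated by 1 library, this is a description of shape only.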

How the data were processed

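RNA of 6 libraries, 1 per genotype, was sequenced after a TruSeq kit with 1 ug of total RNA, per the labels' protocols. The authors deposited raw read counts per gene symbol, with no scaling. Named without roles in the submitters' processing notes are the build mm9, TopHat2 2.0.10, HTSeq, DESeq2, Trimmomatic and FastQC; annotation and strand setting are not given in the sources used here. The 5 summary lines of each file were left out; reads placed at several sites were 32.5 to 47.1% of records, and how the close copies Cxcl1, Cxcl2 and Cxcl3 share such reads is not known.

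Libraries were scaled by TMM in edgeR 4.0.16 (R 4.3.3, limma 3.58.1). Ratios with exact Clopper-Pearson 95% intervals (scipy 1.17.1) were computed for 9 pairs over the 14810 genes that reached 1 CPM in any library. Without molecular identifiers, reads do not count molecules independently, so intervals and the floor of 3 counts per library cover counting error only. The departure added 0.5 counts and used a delta-method interval. The effect per mutant allele was fitted by edgeR's quasi-likelihood test (robust, 1 CPM reached in 2 libraries or more, 3 residual degrees of freedom, Benjamini-Hochberg threshold 0.05), with DESeq2 1.42.0 as an alternative. The scripts were tested on simulated data.

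The members, the lists (family, receptors, inducing cytokines, NF-kappa-B, proteases, and macrophage, endothelial, epithelial and fibroblast markers) and the alternatives were chosen with earlier results of these data known. A further gene list is not reported here. Named were all members, list genes called in a comparison with the levels of the family, receptors and cytokines, and the 3 genes nearest in profile to each member with at least 3 counts in every library, among genes averaging at least 5 CPM without gene models, small RNAs and pseudogenes. Files use older symbols for some genes. Motifs came from RefSeq promoters of GRCm38.p6 and transcript lengths from GENCODE M21, neither the authors' build, so mm9 coordinates were not used here.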

Additional observations from a re-analysis of the deposited data

Results flagged for a closer look

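Cxcl1, Cxcl2 and Cxcl5 moved in opposite directions under the same single change of label. From wild type to Sptbn1+/- each was called lower, with log2 steps of -1.35, -3.95 and -1.23. From the library labelled SMAD3+/- to that labelled Sptbn1+/-;SMAD3+/- each was called higher, with log2 steps of 5.0, 4.95 and 5.66. The gap between the steps was 6.35 for Cxcl1, 8.90 for Cxcl2 and 6.89 for Cxcl5. The second step was not a change of label alone. It also went from 43.3 to 81.2% of uniquely placed reads on genes, and from 2747 to 0.0637 CPM of Xist. These differences cannot be told apart from the genotype. With 1 library at each corner the difference was not tested, and the step of Cxcl2 rests on 1 read in the Sptbn1+/- library.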

How the results depend on the processing

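No paired analysis was possible because each genotype has 1 library, so the groups compared share fewer than 2 replicate numbers. Of the counts of members called, 84 of 88 planned settings and 12 of 19 added after the data were seen stayed within 1.5 times, and no called value of a single member changed sign in the settings run. Other scalings (DESeq2 size factors, total counts, TMM on the pair alone, no structural RNA or histone genes) and filters on low values changed no count of members; total counts moved the median of all genes from 0.07 to 0.17 between the libraries labelled SMAD3-/- and SMAD3+/-.

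Stricter rules lowered the small counts. Beyond 2-fold, the members called fell to 1 in Sptbn1+/- (5 in the report), 0 in Sptbn1-/- (2) and 1 in the library labelled SMAD3+/- (3), and Cxcl9 lost its departure. With intervals widened by the spread of all 6 libraries they were 1, 0 and 1, and 5 of 8 for the library labelled Sptbn1+/-;SMAD3+/- against Sptbn1+/-; Cxcl16 was then no longer called against wild type. With the spread of the 4 libraries of low assigned share they were 3, 1 and 1. A single call left was Cxcl2 in Sptbn1+/-, Cxcl10 in Sptbn1-/- and Cxcl9 in the library labelled SMAD3+/-. Over all genes the calls against wild type for the 5 mutants, in the order of the report, were 271, 157, 903, 7316 and 6027 as reported, 97, 47, 434, 4852 and 3473 beyond 2-fold, and 21, 16, 104, 1930 and 1089 with the wider spread of 6 libraries. The spread of 4 libraries gave 162 and 100 for the Sptbn1 mutants, and a filter of 5 CPM gave 97 in Sptbn1-/-. For Sptbn1-/- against Sptbn1+/- the 193 calls became 63, 17 and 110 under the 2-fold rule and the spreads of 6 and 4 libraries. Under the 2-fold rule and the spread of 6, the 6655 calls between the libraries labelled SMAD3-/- and SMAD3+/- became 4202 and 1633, and those of the library labelled Sptbn1+/-;SMAD3+/- went from 5835 to 3398 and 1153 against Sptbn1+/- and from 6145 to 3613 and 1147 against that labelled SMAD3+/-. Departures went from 5188 to 3061 beyond 2-fold.

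In the allele fit, DESeq2 called 1 member for Smad3, Cxcl9 (fell by 4.26 on the log2 scale), among 2068 genes, and 3 genes for Sptbn1 with no member. By edgeR, leaving out each library in turn gave 0 to 0 members for both genes, the fit without the other gene called 676 genes for Smad3, and the fit without the libraries labelled SMAD3-/- and Sptbn1+/-;SMAD3+/- called 1 for Sptbn1. No member was called by edgeR, and the direction of several depended on 1 library. Without the library labelled Sptbn1+/-;SMAD3+/- the log2 value per Sptbn1 allele turned from 1.77 to -0.32 for Cxcl1, 1.73 to -0.36 for Cxcl2, 1.98 to -0.64 for Cxcl5, 1.21 to -1.4 for Cxcl10 and 0.97 to -0.39 for Cxcl16, and per Smad3 allele from 1.55 to -1.58 for Cxcl2 and 1.41 to -2.35 for Cxcl10. Leaving out each of the other libraries turned 0 to 2 members' uncalled values. The cause was not tested. Depth limits Cxcl2, Cxcl9 and Cxcl10, at 1, 0 and 1 reads in the lowest library.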
